A study of Mus musculus with 26 samples.

Results

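Lgr5 and 9 further marker genes of crypt stem cells (Olfm4, Ascl2, Smoc2, Tnfrsf19, Prom1, Lrig1, Bmi1, Hopx and Msi1) were followed through 3 kinds of sample in a study of Fgfr1op, which encodes a centrosomal protein. The 10 genes were taken by symbol, in upper case for the human cell line, and all 10 were present among the 40481 genes of each mouse table and among the 55093 genes of the Caco-2 table. The first kind of sample was spheroids, which are epithelial cultures grown from small intestinal crypts of Fgfr1op KO or WT mice in Matrigel with 50% L-WRN medium, a conditioned medium that carries Wnt3a, R-spondin 3 and Noggin. They were collected at day 3 after hydroxytamoxifen (250 nM), with 4 mice per genotype. The second kind was crypt-enriched small intestine of KO or WT mice given tamoxifen, prepared with EDTA at day 6 or day 9, with 3 mice per genotype and day. Because the crypt table names its columns by genotype and a serial number, without the day, 6 KO and 6 WT libraries of both days were compared together. The third kind was the human line Caco-2, from a colorectal adenocarcinoma, in which doxycycline switched on either a hairpin that targets Fgfr1op (shFgfr1op) or a control hairpin without a target (scramble), with 3 samples each at day 3. The Cre line, the exons deleted, and the ages and sexes of the mice are not given in the sources used here. Whether the Caco-2 replicates were separate cultures is not stated, and their p-values cover the spread between these replicates, which could be technical.

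Stem cells at the base of the small intestinal crypt sit between Paneth cells and renew the whole epithelium. Lgr5, a receptor for R-spondins, marks these cells, and with R-spondin it keeps the ubiquitin ligases Znrf3 and Rnf43 from removing Frizzled receptors, so that Wnt signalling through beta-catenin stays strong. Olfm4, Ascl2, Smoc2 and Tnfrsf19 are read as markers of the same cells, Prom1 is found in stem cells and in cells above them, and Bmi1, Hopx, Lrig1 and Msi1 have been used as markers of slower-cycling or reserve cells, although the Lgr5-positive cells also express several of them.

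Total counts ranged from 44152608 to 67630241 in spheroids, from 48068740 to 103352863 in crypts and from 37281821 to 50965004 in Caco-2. The summed level of 6 epithelial genes (Epcam, Cdh1, Krt8, Krt18, Vil1 and Cdx2) was at least 4274 CPM (counts scaled to the size of the library) in every library of the 3 kinds. Paneth cell genes summed to 7641 to 84151 CPM in crypts and to 61.6 to 165 CPM in spheroids. Immune genes summed to 26.5 to 82.2 CPM in crypts, and 3 endothelial genes to at most 2.23 CPM. Fibroblast genes summed to 6.16 to 49.9 CPM in KO libraries 4, 5 and 6, to 0.857 to 3.34 CPM in the other KO libraries and to 1.82 to 36.3 CPM in WT, with 0 of 4 tested genes called. Fgfr1op was lower in crypt KO at 21.1 ± 5.22 CPM against 32.9 ± 6.27 CPM in WT (SD, n = 6 each), a log2 fold change of -0.65 ± 0.19 (SE; edgeR adjusted p 0.0261), and the ranges of the groups overlapped. That call was lost without WT library 2 (0.0528) or WT library 6 (0.0543). In spheroids Fgfr1op was at 17.4 ± 1.98 against 23.2 ± 1.12 CPM (n = 4 each), with a log2 fold change of -0.42 ± 0.095 that was not called (edgeR adjusted p 0.117), and in Caco-2 FGFR1OP was at 6.82 ± 0.41 against 15.7 ± 0.21 CPM (n = 3 each), without overlap in either. In crypts 3 libraries stood apart from the other 9, which were KO libraries 4, 5 and 6. Their first principal component scores were 101.7, 124.3 and 106.7, against -64.4 to 5.2 for the others, on an axis with 56.0% of the variance, and the results below are given with and without them. Which day they belong to is not shown by the columns and was not inferred. In spheroids WT replicate 1 lay at -46.7 on the corresponding axis (28.1%), against -15.1 to 32.4 for the other 7 libraries.

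The markers did not have 1 order of abundance in crypts and in spheroids. Levels that can be compared between genes were computed as TPM, the count per summed exon length of a gene relative to the total of such values in the library. In WT crypts Olfm4, a secreted glycoprotein, was the most abundant marker at 837 ± 322 TPM (SD, n = 6), followed by the membrane glycoprotein Prom1 at 60.4 ± 19.0 TPM. Both stood clear of the markers next in order. The other 8 lay between 1.31 ± 0.59 TPM for Msi1, an RNA-binding protein, and 6.87 ± 1.56 TPM for Lrig1, a negative regulator of ErbB receptors, and each of them overlapped its neighbours in the order. Lgr5 was at 2.86 ± 1.68 TPM there. In WT spheroids the leading markers were Ascl2, the transcription factor of the stem cell programme, at 140 ± 10.1 TPM (n = 4), Prom1 at 127 ± 9.54 TPM and Hopx, a homeodomain-only protein, at 124 ± 4.26 TPM, which overlapped in that order. Lrig1 followed at 101 ± 4.27 TPM, apart from Hopx, and Lgr5 was seventh at 5.96 ± 1.81 TPM. Olfm4 was last at 1.69 ± 0.99 TPM. Set side by side, the mean TPM of Olfm4 was 494 times higher in WT crypts than in WT spheroids. The mean TPM of Ascl2 was 58.4 times higher in spheroids, of Hopx 47.7 times, of Lrig1 14.8 times and of the Polycomb protein Bmi1 13.6 times. Smoc2, Lgr5, Prom1, Tnfrsf19 and Msi1 were also higher in spheroids, by 4.31, 2.08, 2.10, 1.25 and 1.31 times. These ratios set levels from separately sequenced tables side by side, the tissue and the table cannot be told apart, and no test was made between them. In bulk RNA of this kind, fewer cells of a type and less RNA per cell cannot be told apart.

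Promoters were looked up because several markers are known targets of Wnt signalling. RefSeq (GRCm38.p6) promoter entries were matched by symbol for 7 of the 10 markers, with 10 promoters in all. In all 250 bases before each of the 10 starts, the core letters CTTTGAA or CTTTGAT that Tcf and Lef factors bind, searched on both strands, occurred in 1 of the 10 promoters, and in 7.48% of all 32817 promoters of the same length. The E-box CAGCTG, which reads the same on both strands, occurred in 1 of 10 against 13% of all promoters. Both matches, which do not overlap, were in the inner promoter of Tnfrsf19, which encodes the receptor Troy, at positions -202 and -10 from the start, and they are shown in capitals (the first as its reverse complement). The sequences shown, 5′ to 3′ on the strand of the gene, are those of Olfm4, which ranged from 8.37 to 1998 CPM over the crypt libraries, of Ascl2, which had the highest mean TPM of the 10 in WT spheroids, and of Tnfrsf19 for its matches. The Olfm4 sequence was searched over the same 250 bases and is shown only up to where GENCODE M21 has the first exon of another transcript.
Olfm4 (chr14:80000052-80000250, plus strand): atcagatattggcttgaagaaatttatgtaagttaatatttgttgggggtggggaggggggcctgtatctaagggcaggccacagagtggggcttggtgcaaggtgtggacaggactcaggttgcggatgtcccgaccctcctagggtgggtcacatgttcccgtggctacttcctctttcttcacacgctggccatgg
Ascl2 (chr7:142969265-142969514, minus strand): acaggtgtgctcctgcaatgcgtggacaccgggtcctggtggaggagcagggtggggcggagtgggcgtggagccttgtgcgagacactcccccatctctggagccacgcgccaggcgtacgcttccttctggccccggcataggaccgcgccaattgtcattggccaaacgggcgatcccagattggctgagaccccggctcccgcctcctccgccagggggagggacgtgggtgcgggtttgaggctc
Tnfrsf19, inner promoter (chr14:61037988-61038237, minus strand): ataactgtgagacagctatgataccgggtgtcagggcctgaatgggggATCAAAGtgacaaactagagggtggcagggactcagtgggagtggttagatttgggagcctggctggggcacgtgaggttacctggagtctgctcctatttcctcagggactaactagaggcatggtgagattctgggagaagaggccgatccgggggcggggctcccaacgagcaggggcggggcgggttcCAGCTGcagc
A match is a description of the letters, and these data do not measure binding.

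Across all 12 crypt libraries, 3 of the 10 markers rose in KO and none passed as lower in edgeR. Bmi1, Hopx and Msi1 rose 1.63- to 1.78-fold, whereas Lgr5 and Olfm4 had lower means in KO that did not pass, with KO libraries far apart from each other. DESeq2 called 1 marker lower, and its share over all genes is not given here. Limma voom with sample quality weights called 7 markers, 4 of them lower, and 7208 genes in all. Of 16413 genes tested, edgeR called 4014 (24.5%), with 14% higher and 10.5% lower in KO, and 4 of the 10 markers had an unadjusted p below 0.05, against 38.1% of genes. The median log2 fold change over the 10 markers was -0.14, against 0.05 over all genes tested, with 5 markers above and 5 below 0.

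Lgr5 (ENSMUSG00000020140, chromosome 10, 115450311 to 115587780, minus strand, mm10) ranged from 6.23 to 31.0 CPM in WT crypts, with a median of 16.2 CPM. In KO it was at 8.64, 12.7 and 9.08 CPM in libraries 1, 2 and 3 and at 2.45, 3.37 and 2.25 CPM in libraries 4, 5 and 6. Thus libraries 4, 5 and 6 lay below every WT library, and libraries 1, 2 and 3 lay within the WT range. The log2 fold change of Lgr5, KO minus WT, was -1.35 ± 0.50 (SE), and the edgeR adjusted p was 0.0663. The same contrast passed in DESeq2 (-1.37, adjusted p 0.0132), with limma voom and sample quality weights (-2.24, 0.00131), and in edgeR without KO library 2 (0.0323) or WT library 1 (0.0468).

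Olfm4 (chromosome 14, 79984081 to 80023139, plus strand) ranged from 817 to 1998 CPM in WT crypts, with a median of 1354 CPM. In KO it was at 428, 914 and 808 CPM in libraries 1, 2 and 3 and at 22.4, 17.0 and 8.37 CPM in libraries 4, 5 and 6. Of the first 3, library 2 lay inside the WT range and libraries 1 and 3 below it, and the last 3 were far below every other crypt library. The log2 fold change was -1.92 ± 1.00 (SE; edgeR adjusted p 0.179) over all 12 libraries, and -5.13 (adjusted p 0.000515) with voom, whose weights count libraries unequally.

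Smoc2 (chromosome 17, 14279506 to 14404790, plus strand), a secreted matricellular protein, ranged from 17.1 to 31.6 CPM in WT crypts, with a median of 22.7 CPM. In KO it was at 33.4, 23.2 and 22.5 CPM in libraries 1, 2 and 3, within or above the WT range, and at 3.47, 3.79 and 2.79 CPM in libraries 4, 5 and 6. The log2 fold change was -0.64 ± 0.58 (edgeR adjusted p 0.445), and -2.15 with voom (0.00135). Lgr5, Olfm4 and Smoc2 were thus the 3 markers of 10 for which KO libraries 4, 5 and 6 all lay below the other 9 libraries. Over all genes tested, these 3 libraries were all below the other 9 for 14.8% of genes and all above them for 13.2%, and no test was made on libraries chosen in this way.

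Ascl2, Tnfrsf19, Prom1 and Lrig1 did not separate those libraries from the other 9. Ascl2 had 0.913 to 2.72 CPM in KO (median 1.54) and 0.897 to 3.21 CPM in WT (median 2.41), with overlap (log2 fold change -0.30 ± 0.36, edgeR adjusted p 0.581). Tnfrsf19 was lowest in KO library 6 at 2.75 CPM, with a KO median of 4.64 and a WT range of 4.29 to 11.1 CPM (-0.35 ± 0.33, edgeR adjusted p 0.461, and -0.76 with voom, 0.0463). Prom1 went the other way among the KO libraries. It was at 88.7, 228 and 131 CPM in KO libraries 1, 2 and 3 and at 300.4, 421 and 346 CPM in libraries 4, 5 and 6, against 154 to 304 CPM in WT (0.06 ± 0.33, edgeR adjusted p 0.910). Lrig1 was between 16.0 and 29.1 CPM in WT, and all KO values lay within that range (0.01 ± 0.18, edgeR adjusted p 0.961). Among the KO libraries it was at 27.3, 26.9 and 22.8 CPM in libraries 1, 2 and 3. In libraries 4, 5 and 6 it was lower, at 16.4, 18.4 and 19.3 CPM.

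**Figure D1:**
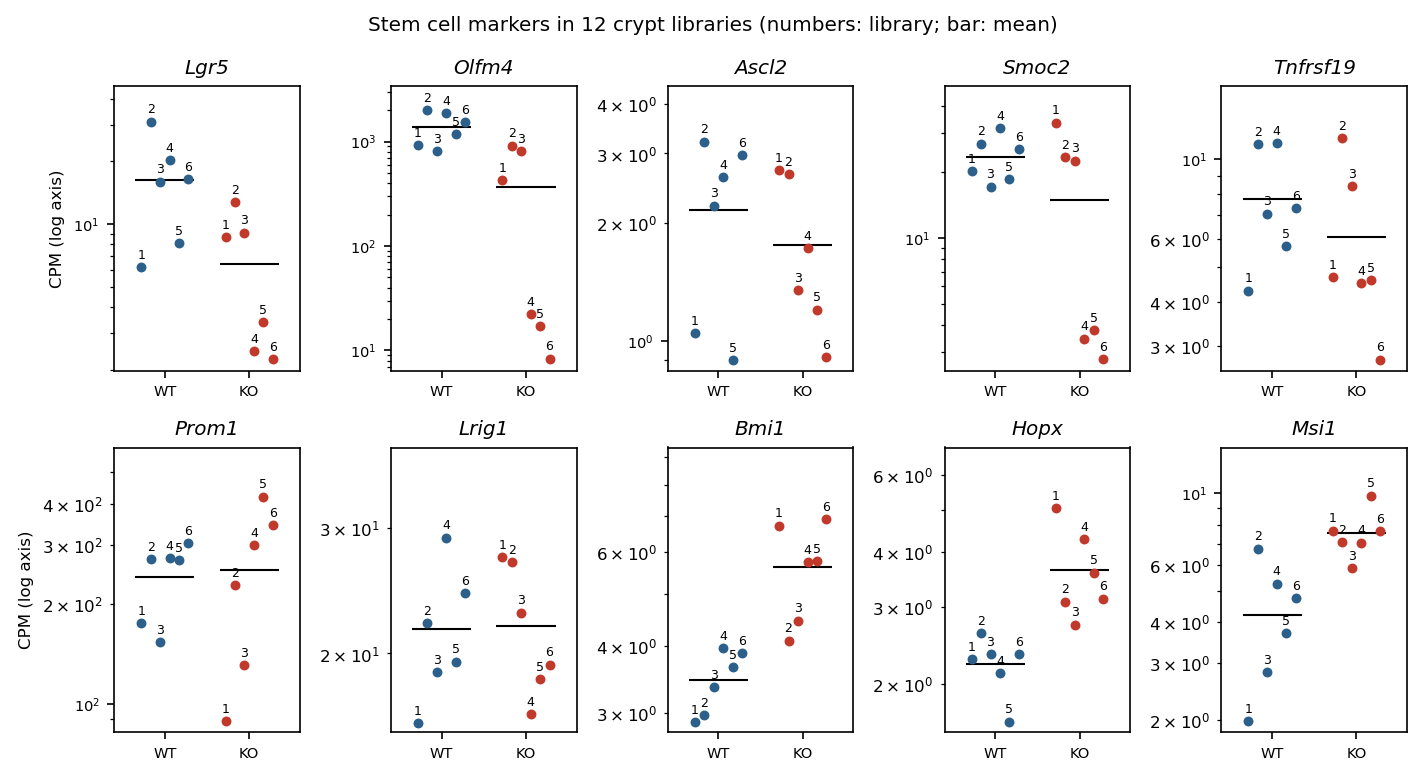
Level of each of the 10 markers in CPM (log axis, a separate scale per panel) in the 6 WT and 6 KO crypt libraries; each point is a library with its number and bars are group means. KO libraries 4, 5 and 6 lie below all other libraries for Lgr5, Olfm4 and Smoc2, while all 6 KO libraries lie above all 6 WT libraries for Bmi1 and Hopx.

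Bmi1, a subunit of Polycomb repressive complex PRC1, was higher in every KO library than in every WT library. It ranged from 4.09 to 6.91 CPM in KO (median 5.75) and from 2.89 to 3.97 CPM in WT (median 3.51), a 1.63-fold rise (log2 fold change 0.70 ± 0.18, edgeR adjusted p 0.0127). Unlike that of Lgr5, its KO values were not split by library, at 6.70, 4.09 and 4.46 CPM in libraries 1, 2 and 3 and 5.74, 5.76 and 6.91 CPM in libraries 4, 5 and 6. Hopx likewise did not overlap, with 2.73 to 5.05 CPM in KO (median 3.36) and 1.64 to 2.61 CPM in WT (median 2.31), a 1.64-fold rise (0.71 ± 0.20, edgeR adjusted p 0.0182). Groups that did not overlap were found for 2 of 10 markers, both higher in KO, against 4.9% of all genes tested that were higher and 5.71% that were lower (10.6% in either direction). The Hopx call was lost without WT library 5 (0.0518) and without a filter on low counts (0.0525). Its locus (chromosome 5, 77086988 to 77115121, minus strand) overlaps Hopxos on the other strand, and that of Lgr5 overlaps A930009A15Rik. The strand setting of the counting is not given, so reads of such partners cannot be told apart.

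Msi1 rose 1.78-fold in KO crypts (log2 fold change 0.83 ± 0.26, edgeR adjusted p 0.0307), with overlap. It ranged from 5.87 to 9.84 CPM in KO (median 7.37) and from 1.98 to 6.76 CPM in WT (median 4.23), so that WT library 2 lay above KO library 3. This call rested on single libraries, since the adjusted p was 0.0699 or 0.0549 without KO library 5 or 6, and 0.0526, 0.0718 or 0.0747 without WT library 1, 3 or 5. The Bmi1 call was kept with each library left out in turn.

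Without KO libraries 4, 5 and 6, no marker was called. In that fit of 3 KO against 6 WT libraries edgeR called 924 of 16924 genes (5.46%), and 5 of the 10 markers had an unadjusted p below 0.05, against 23.1% of genes. The 3 KO libraries cannot hold both days in equal shares, as the 6 WT libraries do, so genotype and day cannot be fully told apart there. The fitted rises of Bmi1, Hopx and Msi1 were 0.56 ± 0.23, 0.71 ± 0.25 and 0.71 ± 0.31 on the log2 scale, close to their values over all libraries, with edgeR adjusted p of 0.154, 0.106 and 0.189. Olfm4 was at 716 ± 255 CPM (SD, n = 3) in the 3 remaining KO libraries, with a log2 fold change of -0.95 ± 0.32 (edgeR adjusted p 0.0960). Lgr5 had a log2 fold change of -0.69 ± 0.42 (0.360). The sign turned for Smoc2 (0.19 ± 0.22), Ascl2 (0.05 ± 0.39), Tnfrsf19 (0.08 ± 0.32) and Prom1 (-0.70 ± 0.29, edgeR adjusted p 0.170). The median over the 10 markers was 0.13 there, against 0.03 over all genes.

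Other genes differed in KO libraries 4, 5 and 6 as well, and their part in the marker values was not tested. A list of 7 genes of epithelial repair and the fetal-like state (Clu, Ly6a, Anxa1, Il33, Spp1, Msln and Gja1) summed to 1387, 2427 and 1788 CPM in them, to 22.5 to 33.9 CPM in KO libraries 1, 2 and 3, and to 14.2 to 41.0 CPM in WT. In that list 3 of 7 tested genes were called higher in KO over all 12 libraries, beside 14% of all genes. Without these 3 libraries 0 of 7 were called higher, beside 2.72% of all genes. Spp1, Msln and Gja1 overlapped the WT range. Msln was at 1.58, 9.67 and 2.50 CPM in libraries 4, 5 and 6 and at up to 12.5 CPM in WT. Gja1 was at 0.22, 2.82 and 0.46 CPM there and at up to 1.63 CPM in WT. Ly6a, which encodes the surface protein Sca-1, was at 804, 1311 and 1132 CPM in libraries 4, 5 and 6 and at most 17.0 CPM in any other crypt library. Clu, a secreted chaperone of the revival stem cell state, was at 187, 439 and 229 CPM against at most 10.9 CPM elsewhere. Anxa1, an actin- and membrane-binding annexin, was at 344, 616 and 373 CPM against at most 6.41 CPM, and its fitted log2 change was 6.81 ± 1.79 with them and -0.84 without them.

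Among markers of differentiated cells, the Paneth and enterocyte sums were lower in the same 3 libraries than in the other 9. Paneth cell genes summed to 7641 to 12154 CPM in KO libraries 4, 5 and 6, against 37188 to 51274 CPM in KO libraries 1, 2 and 3 and 33890 to 84151 CPM in WT, and 0 of the 7 were called. Enterocyte genes summed to 2574 to 6345 CPM, against 12307 to 27722 and 12160 to 31405 CPM, with 1 of 8 called lower. Goblet cell genes summed to 5458 to 7007 CPM in the 3 libraries, below the 7215 to 11580 CPM of WT. KO libraries 1, 2 and 3, at 6251 to 7885 CPM, overlapped both, and 1 of 7 goblet cell genes was called higher. Tuft cell genes summed to 32.6 to 50.6 CPM, against 16.7 to 25.8 and 25.1 to 47.6 CPM, with 2 of 4 called lower over all 12 libraries (Pou2f3 and Dclk1) and Dclk1 also without the 3 libraries. Enteroendocrine genes summed to 130 to 185 CPM, against 266 to 354 and 168 to 429 CPM, with 0 of 6 called. The epithelial sum was higher in those 3, at 10203 to 11548 CPM against 6539 to 6801 CPM in the other KO libraries and 4274 to 6558 CPM in WT. Genes of proliferating cells overlapped throughout, at 941 to 1169 CPM in the 3 libraries, 893 to 1378 CPM in KO libraries 1, 2 and 3 and 665 to 1264 CPM in WT. Of all genes tested over 12 libraries, 14% were called higher and 10.5% lower, and 2.74% were called lower without the 3 libraries. All of these lists hold genes expressed in normal small intestine.

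**Figure D2:**
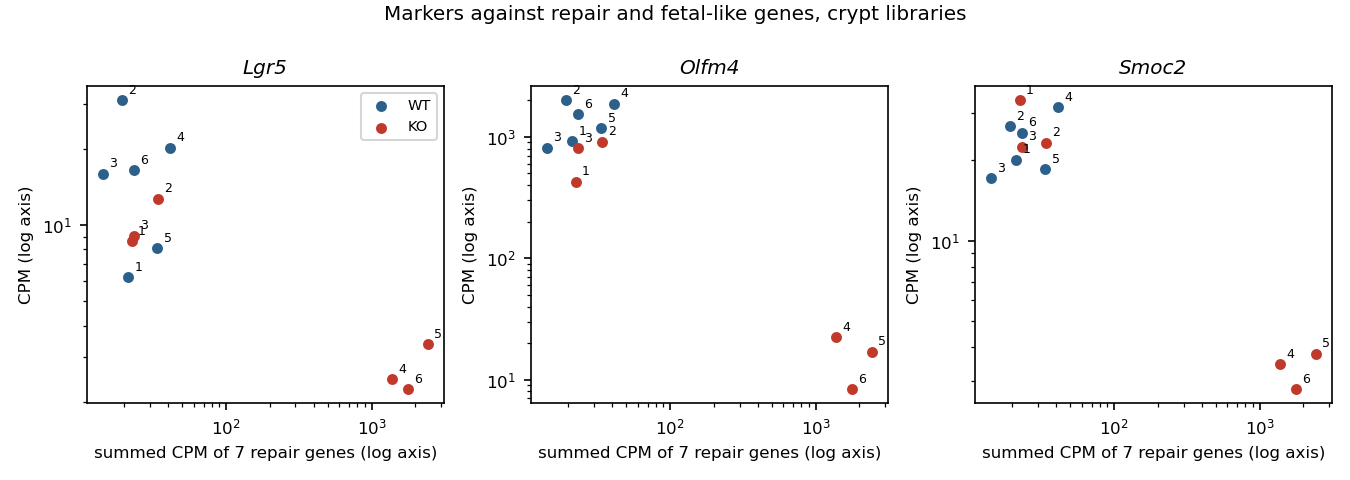
CPM of Lgr5, Olfm4 and Smoc2 (vertical, log axis) against the summed CPM of 7 repair and fetal-like genes (horizontal, log axis) in the 12 crypt libraries, numbered by library. KO libraries 4, 5 and 6 lie apart at sums of 1387 to 2427 CPM, and the other 9 libraries lie at 14.2 to 41.0 CPM.

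Lgr5 varied together with several of the other markers over crypt libraries of the same genotype. After the genotype means were taken out, its log2 CPM had a Pearson correlation over 12 libraries of 0.88 with Tnfrsf19, 0.83 with Olfm4, 0.82 with Smoc2, 0.81 with Lrig1 and 0.80 with Ascl2. It was 0.37 with Msi1, 0.10 with Hopx, -0.38 with Bmi1 and -0.40 with Prom1. Over the 9 libraries other than KO 4, 5 and 6, the values were 0.84 for Tnfrsf19, 0.65 for Olfm4, 0.47 for Smoc2, 0.66 for Lrig1, 0.86 for Ascl2, 0.81 for Msi1, 0.41 for Prom1, 0.27 for Hopx and -0.03 for Bmi1. Of 9690 genes ranked, the 5 most like Lgr5 were Wnt3 (0.97), the Wnt ligand made by Paneth cells, Zfp629 (0.96), Tent5c (0.95), Rph3al (0.93) and Bmp7 (0.93). Over the 9 libraries these were 0.93, 0.95, 0.90, 0.86 and 0.86. The points share library depth and scaling, so these values are a description of these libraries. In the 8 spheroid libraries the 5 genes most like Lgr5 of 10748 were H2-T-ps (0.99), Ampd3 (0.98), Dusp5 (0.98), Foxo3 (0.98) and Arvcf (0.98), and the markers ran from -0.56 for Olfm4 to 0.67 for Lrig1.

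In spheroids no marker passed the test, and those nearest to it were lower in KO. Hopx was at 55.3, 53.2, 54.1 and 56.5 CPM in KO replicates 1 to 4 and at 65.4, 65.4, 63.5 and 60.1 CPM in WT, without overlap. Its log2 fold change was -0.21 ± 0.058 (edgeR adjusted p 0.145), and DESeq2 called it lower (-0.21, adjusted p 0.0391). Smoc2 was at 46.1, 29.2, 53.2 and 47.7 CPM in KO and at 63.5, 58.4, 62.8 and 55.5 CPM in WT, also without overlap, with KO replicate 2 lowest (-0.45 ± 0.16, edgeR adjusted p 0.248). Ascl2 was at 57.2, 49.5, 73.3 and 65.9 CPM in KO and 71.2, 79.8, 77.8 and 77.7 CPM in WT (-0.32 ± 0.11, edgeR adjusted p 0.227), where KO replicate 3 lay above WT replicate 1. Over 15915 genes tested edgeR called 37 (0.232%; 0.189% higher and 0.044% lower), and 0 of the 10 markers were called. Of the markers 3 had an unadjusted p below 0.05, against 14.6% of all genes. Groups did not overlap for 2 markers, both lower in KO, against 4.02% of all genes lower and 4.55% higher (8.56% in either direction).

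Lgr5 overlapped between spheroid genotypes, at 24.3, 9.67, 19.5 and 15.0 CPM in KO and 20.3, 29.6, 13.7 and 19.5 CPM in WT (log2 fold change -0.28 ± 0.31, edgeR adjusted p 0.716). Olfm4 was at 1.27 to 3.82 CPM in KO and 0.830 to 3.02 CPM in WT (0.62 ± 0.41, edgeR adjusted p 0.519). Tnfrsf19, Prom1, Lrig1, Bmi1 and Msi1 had log2 fold changes of -0.11 (Lrig1) to 0.10 (Msi1), each with overlap and edgeR adjusted p of at least 0.495. The median over the 10 markers was -0.09, against -0.002 over all genes. No marker was called with any of the 8 libraries left out, WT replicate 1 included. Repair and fetal-like genes were abundant in spheroids of both genotypes, with sums of 3695 to 4624 CPM in KO and 2642 to 3703 CPM in WT, and edgeR called 0 of the 7 genes. DESeq2, which called 577 genes in spheroids, called Clu (log2 fold change 0.46, adjusted p 0.0375), Ly6a (0.45, 0.0433) and Anxa1 (0.57, 0.0377) higher in KO. Clu was at 1472 to 2019 CPM in KO and 997 to 1462 CPM in WT, and Ly6a at 1002 to 1051 against 566 to 908 CPM, both without overlap, and Anxa1 overlapped. Gja1 went the other way, at 3.30 to 7.93 CPM in KO and 6.21 to 10.6 CPM in WT, with overlap. Msln overlapped as well, at 771 to 866 against 732 to 896 CPM.

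**Figure D3:**
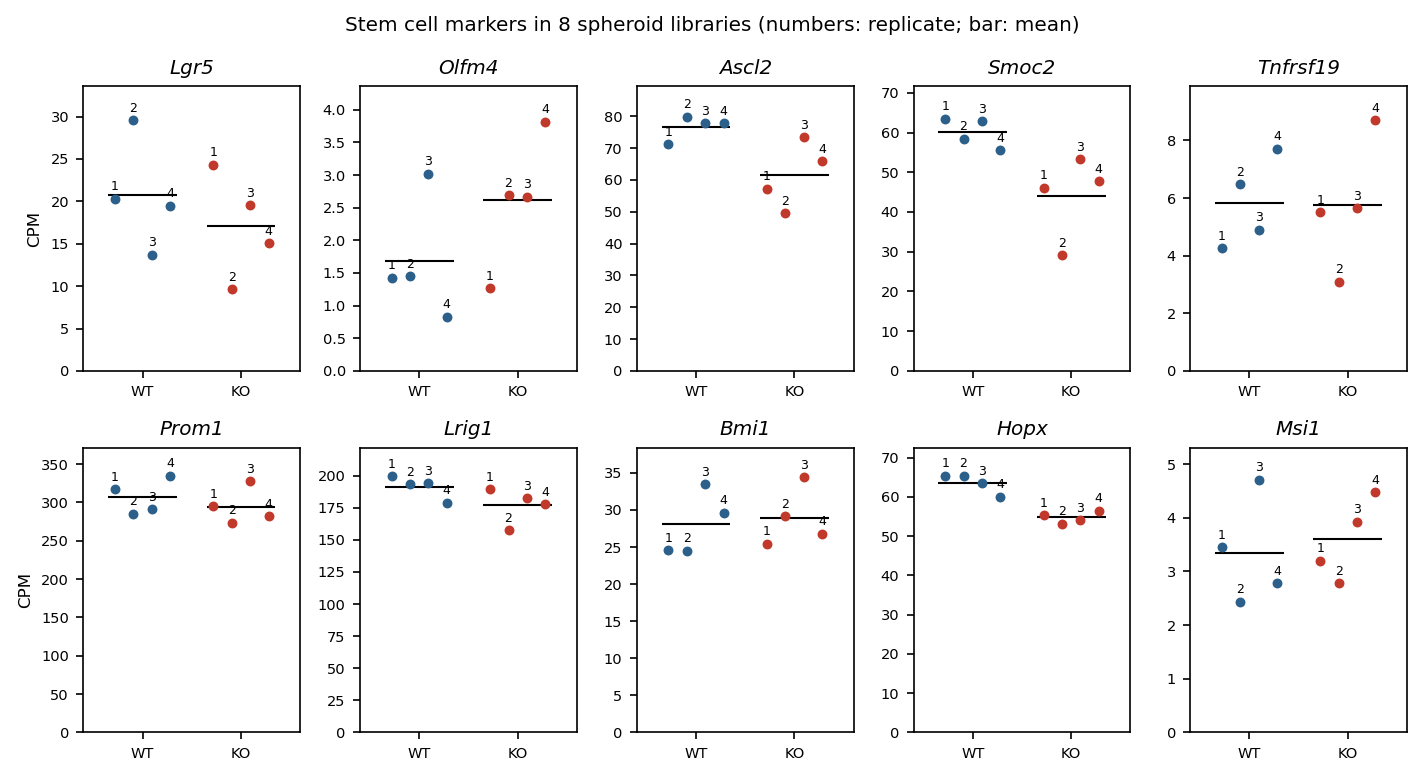
Level of each marker in CPM (linear axis from 0, a separate scale per panel) in the 4 WT and 4 KO spheroid libraries; points are replicates with their number and bars are group means. The groups overlap for all markers except Smoc2 and Hopx, which lie lower in KO.

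The genotype effect differed between crypts and spheroids for Hopx. In 1 fit of both mouse tables, the crypt effect minus the spheroid effect of Hopx was 0.88 ± 0.22 on the log2 scale (edgeR adjusted p 0.0362), with KO above WT in crypts and below it in spheroids, both without overlap. It was the only marker of 10 with a difference that passed, where 528 of 18485 genes did (2.86%). The call was lost without a filter on low counts (0.90, adjusted p 0.0575), without crypt KO libraries 4, 5 and 6 (0.87, 0.0924) and without spheroid WT replicate 1 (0.87, 0.0623). Bmi1 had a difference of 0.61 ± 0.23 (edgeR adjusted p 0.146), Lgr5 of -1.12 ± 0.69 (0.371) and Olfm4 of -2.59 ± 1.37 (0.292). With voom the differences of Lgr5 (-2.04), Olfm4 (-6.13), Smoc2 (-1.83) and Bmi1 (0.68) passed as well as that of Hopx (0.79). The share of all genes that passed with voom is not given here, so these passes cannot be set beside it. Because each table is 1 kind of sample, the tissue, the time after the drug and the table cannot be told apart in these differences.

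In Caco-2 with the Fgfr1op hairpin, 6 of the 8 markers that could be tested rose, PROM1 fell, and LRIG1 did not pass. LGR5 was at 41.9, 41.1 and 39.2 CPM in shFgfr1op replicates 1, 2 and 3 and at 13.4, 14.8 and 15.4 CPM in scramble, a 2.79-fold rise (log2 fold change 1.48 ± 0.065, edgeR adjusted p 5.40e-23). SMOC2 was the marker with the next largest fitted rise, at 5.43, 5.09 and 6.69 CPM against 2.49, 2.85 and 2.84 CPM (2.10-fold, 1.07 ± 0.15, edgeR adjusted p 2.40e-07). ASCL2 was at 29.3, 27.7 and 27.5 CPM against 19.9, 16.3 and 19.0 CPM (1.54-fold, 0.62 ± 0.071, edgeR adjusted p 9.87e-10). Each of these 3 lay above the scramble range in all 3 shFgfr1op samples. Over all genes edgeR called 6031 of 18905 (31.9%), 15.7% higher and 16.2% lower, with an unadjusted p below 0.05 for 39.8% of genes and for 7 of the 8 markers. Groups did not overlap for 7 of the 8 markers (6 higher and 1 lower) and for 42.4% of genes (20.8% higher and 21.5% lower), so a call or a gap is common among all genes in this comparison. The median log2 fold change over the 8 markers was 0.52, against -0.005 over all genes.

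MSI1 was at 51.7, 51.4 and 51.3 CPM with the hairpin and at 37.0, 39.3 and 35.9 CPM in scramble (log2 fold change 0.46 ± 0.052, edgeR adjusted p 7.57e-10). TNFRSF19 was at 86.4, 82.5 and 77.5 CPM against 52.8, 55.6 and 55.8 CPM (0.58 ± 0.046). BMI1 had the smallest rise that passed, at 27.2, 28.3 and 28.8 CPM against 24.4, 25.8 and 24.1 CPM (0.18 ± 0.063, edgeR adjusted p 0.0203). That call was lost without scramble replicate 1 (0.0680) or 3 (0.0910) or shFgfr1op replicate 3 (0.0592). PROM1 went against the others at 302, 297 and 298 CPM against 381, 366 and 376 CPM (-0.32 ± 0.030). LRIG1 overlapped, at 56.3, 52.6 and 57.7 CPM against 53.2, 53.6 and 53.0 CPM (0.06 ± 0.048, edgeR adjusted p 0.373). OLFM4 and HOPX were not tested. Each had 1 count over all 6 libraries, in a scramble library, where 3 counts per library would be 0.0598 to 0.0804 CPM, so no difference was detectable at this depth. Goblet cell genes summed to 89.3 to 99.7 CPM with the hairpin and to 170.4 to 174 CPM in scramble, and enterocyte genes to 1039 to 1196 and to 1970 to 2005 CPM, with 3 of 4 and 5 of 6 tested genes called lower. The sixth enterocyte gene, ALPI, was called higher, 16.2% of all genes were lower, and the part of these genes in the marker values was not tested.

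**Figure D4:**
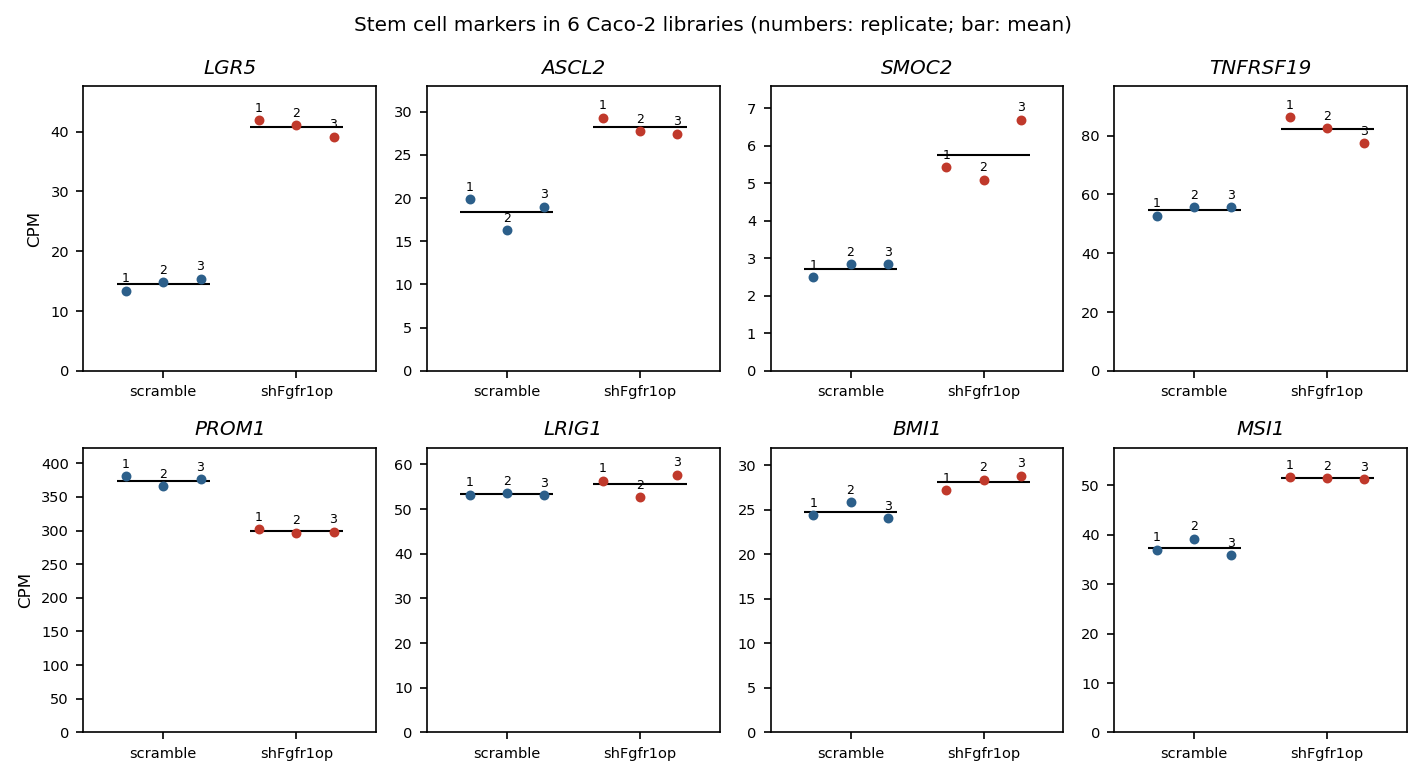
Level of the 8 tested markers in CPM (linear axis from 0, a separate scale per panel) in 3 scramble and 3 shFgfr1op Caco-2 samples; points are replicates with their number and bars are group means. LGR5, ASCL2, SMOC2, TNFRSF19, BMI1 and MSI1 lie above the scramble samples without overlap, PROM1 lies below, and LRIG1 overlaps.

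Set beside each other, the fitted changes of the markers had no common direction over the 3 kinds of sample. Lgr5 was at -0.28 in spheroids, -1.35 in crypts and 1.48 in Caco-2 on the log2 scale, and Smoc2 at -0.45, -0.64 and 1.07. In edgeR both were called in Caco-2, and neither was called in spheroids or crypts. Without KO libraries 4, 5 and 6 the crypt value of Smoc2 was 0.19. Bmi1 was at 0.05, 0.70 and 0.18 and Msi1 at 0.10, 0.83 and 0.46, all above 0, with the first not called for either. Differences between the mouse and human comparisons were not tested.

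**Figure D5:**
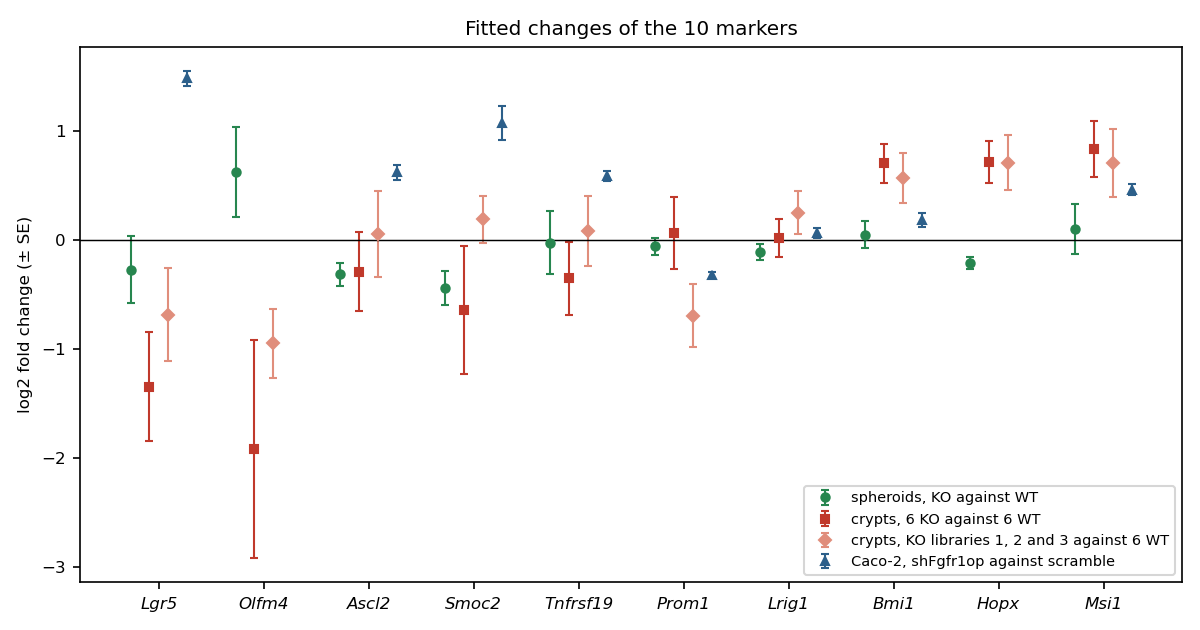
Fitted log2 fold change of each marker (points) with its standard error (bars) in spheroids, in crypts with all 12 libraries, in crypts with KO libraries 1, 2 and 3 against 6 WT, and in Caco-2; values above 0 are higher in KO or with the hairpin. Leaving out crypt KO libraries 4, 5 and 6 moves Smoc2, Ascl2 and Tnfrsf19 above 0 and Prom1 below 0, and leaves Bmi1, Hopx and Msi1 at 0.56 to 0.71.

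Of 19 further crypt base stem cell genes, all tested, 5 rose and 1 fell in KO crypts over 12 libraries, beside 14% of all genes higher and 10.5% lower, with a median log2 fold change of 0.006. Without KO libraries 4, 5 and 6, 2 of the 19 rose and 0 fell, beside 2.72% and 2.74% of all genes. Igfbp4, an insulin-like growth factor binding protein, rose from 2.23 ± 0.73 to 7.10 ± 2.23 CPM (SD, n = 6; 1.66 ± 0.27, edgeR adjusted p 0.00217), and Cd44, a Wnt-responsive adhesion receptor, rose from 40.7 ± 15.1 to 187 ± 115 CPM (2.20 ± 0.43, edgeR adjusted p 0.00520). Both were also called higher without KO libraries 4, 5 and 6 (edgeR adjusted p 0.0220 and 0.0408). The guidance receptor Ephb2 rose by 0.81 ± 0.20 (edgeR adjusted p 0.0108), and by 0.77 without a call (0.0769) when those libraries were left out. In spheroids 1 of 19 rose, which was Clca3b (0.70 ± 0.10, edgeR adjusted p 0.0277), a call that was lost in 7 of the 8 fits with a library left out. Of all genes 0.189% rose there. Sox4, a transcription factor, had a log2 fold change of 0.56 ± 0.10 (edgeR adjusted p 0.0749) and Ephb3, a guidance receptor, of 0.32 ± 0.059 (edgeR adjusted p 0.0749). Both passed as higher without a filter on low counts (edgeR adjusted p 0.00361 and 0.0458), with DESeq2 (0.000329 and 0.000578) and with voom (0.0493 for each), and Sox4 also without KO replicate 3 (edgeR adjusted p 0.0329). In Caco-2 5 of 17 rose and 3 fell, beside 15.7% of all genes higher and 16.2% lower. CDK6, a cell cycle kinase, was higher by 0.68 ± 0.047 on the log2 scale, and EPHB3 was at 23.8 ± 0.82 against 16.3 ± 0.54 CPM (n = 3 each).

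A further list held receptors, ligases and intracellular genes of R-spondin and Wnt signalling, and the ligand Rspo1 among those tested in crypts. Of 11 tested in crypts 1 rose, the Wnt co-receptor Lrp5 (0.56 ± 0.19, edgeR adjusted p 0.0416, lost in 9 of 12 fits with a library left out). Of 11 tested in spheroids 0 were called. Over all genes, 24.5% were called in crypts and 0.232% in spheroids. In Caco-2 4 of 10 rose and 3 fell, beside 15.7% and 16.2% of all genes. There the Wnt receptor FZD5 fell from 256 ± 1.88 to 174 ± 3.90 CPM, ZNRF3, the ligase that removes Frizzled receptors, rose from 74.0 ± 2.74 to 95.6 ± 2.84 CPM, and beta-catenin (CTNNB1) rose from 149 ± 2.29 to 181 ± 6.23 CPM (n = 3 each). Wnt target genes were called in 0 of 7 in crypts and 0 of 7 in spheroids, beside 24.5% and 0.232% of all genes. In Caco-2 7 of 8 rose and 1 fell, beside 15.7% and 16.2% of all genes. Over the tested genes of that list the median log2 fold change was 0.03 in crypts and 0.09 in spheroids. Sp5, a transcription factor induced by Wnt, was at 51.7 ± 5.25 CPM in KO spheroids and 39.9 ± 3.22 CPM in WT (0.37 ± 0.089, edgeR adjusted p 0.125, DESeq2 adjusted p 0.0166). In crypts Sp5 went the other way, at -0.65 to -0.28 with a library left out, and voom called it lower (-0.77, adjusted p 0.0172). With a spheroid library left out, Lef1 was at -1.79 to -0.79 and Nkd1 at 0.58 to 1.27. Myc was at 127 ± 49.7 CPM in KO crypts and 63.9 ± 30.8 CPM in WT (0.98 ± 0.35, edgeR adjusted p 0.0542, DESeq2 adjusted p 0.0233). Notch pathway genes were called in 0 of 8 in crypts and 0 of 8 in spheroids. In Caco-2 3 of 7 Notch genes rose and 2 fell, beside 15.7% and 16.2% of all genes. The ligand DLL1 was at 10.7 ± 1.27 against 6.54 ± 0.83 CPM there, and the target HES1 at 78.1 ± 4.08 against 93.9 ± 3.37 CPM.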

How the data were processed

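The authors deposited whole-number read counts, with 1 table for spheroids, 1 for crypts and 1 for Caco-2. STAR, DESeq2 and mm10 are named, per the submitters' processing notes, without versions. Caco-2 columns were assigned to groups by the end of the hairpin catalogue numbers in the labels' protocols, and their gene identifiers are human although the labels name mouse. The Caco-2 build and the settings for strand and multimapping are not given in the sources used here. Repeated entries with equal counts were removed (276 in each mouse table, 116 in Caco-2). No replicate pair agreed within sampling noise. Each table was fitted with edgeR 4.0.16 (R 4.3.3), with filterByExpr, TMM scaling, the robust quasi-likelihood test and Benjamini-Hochberg adjustment over all genes tested, and a gene was called where its adjusted p was below 0.05. The standard error is the log2 fold change divided by the square root of F. On simulated counts, 68.5% of 200 genes changed 2-fold were called for spheroids, 37.0% for crypts and 78.0% for Caco-2. Unchanged genes called in these simulations numbered 14, 2 and 22 in the same order. Levels per length used exon lengths from GENCODE M21, and correlations used log2 CPM with a prior count of 2. All 10 markers are named, as are the target, genes among the 3 of smallest p in each list and the 5 genes most like Lgr5. A gene of the repair list is not reported here and is left out of its sums and counts. The members and lists were chosen with earlier results of these data known. Alternatives were RLE size factors, no filter, at least 1 CPM, DESeq2 1.42.0, voom of limma 3.58.1 with sample quality weights, each library left out and the replicate number as a block. The fits without crypt KO libraries 4, 5 and 6 or without spheroid WT replicate 1 for the difference between tissues were chosen after seeing the data.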

Additional observations from a re-analysis of the deposited data

Results flagged for a closer look

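Hopx was called higher in KO crypts (log2 fold change 0.71, edgeR adjusted p 0.0182), its fitted change in spheroids was -0.21 and was not called (edgeR adjusted p 0.145), and the difference itself was tested. The crypt effect minus the spheroid effect was 0.88 on the log2 scale (edgeR adjusted p 0.0362). All 6 KO crypt libraries lay above the 6 WT libraries, and all 4 KO spheroid libraries lay below the 4 WT libraries. Leaving out crypt KO libraries 4, 5 and 6 gave 0.87 (0.0924) and leaving out spheroid WT replicate 1 gave 0.87 (0.0623). Among 44 groups checked for a single library far from the rest of its group, none had one.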

How the results depend on the processing

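For spheroids the count of genes called was 37, and it was 154 without a filter on low counts, 577 with DESeq2 and 3 to 160 with a library left out. DESeq2 called 1 marker, lower. With the replicate number as a block, edgeR called 71 genes in spheroids and 0 markers. Same-numbered spheroid samples had correlations of deviations of -0.03, 0.02, 0.07 and 0.10 and Caco-2 samples of 0.04, 0.01 and 0.00, so the numbers do not show pairing, and the crypt columns carry no number of the labels, so no paired analysis was possible there. For crypts 4014 genes were called, 7208 with voom, 924 without KO libraries 4, 5 and 6, and 2749 to 5005 with 1 library left out. Markers called there were 3, all higher, against 7 with voom (4 lower) and 0 without those libraries (0 higher). With 1 library left out they were 1 to 4 (1 to 3 higher, 0 to 1 lower). DESeq2 called Lgr5 lower, and this 1 call does not count the markers called higher. For Caco-2 the counts stayed within 1.5 times of the reported ones. The difference between tissues passed for 1 marker, for 5 with voom, and for 0 without a filter, without the 3 crypt libraries or without spheroid WT replicate 1.

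Signs turned mostly for log2 changes that were not called. In spheroids these were Tnfrsf19 (0.016) and Bmi1 (-0.0057) with voom, and with a library left out Tnfrsf19 (-0.30 to 0.18), Bmi1 (-0.047 to 0.14) and Msi1 (-0.023 to 0.32). In crypts Lrig1 was -0.0079 with RLE, -0.011 without a filter, -0.0066 with DESeq2, -0.21 with voom and -0.085 to 0.087 with a library left out, and Prom1 was -0.14 to 0.24 with a library left out. In Caco-2 MSLN, a gene of the repair list, was -0.058 to 0.32 with a library left out, around 0.19. Without KO libraries 4, 5 and 6, Ascl2 was 0.053, Smoc2 0.19, Tnfrsf19 0.081, Prom1 -0.70 and Anxa1, which was called over all libraries, -0.84. The crypt minus spheroid difference turned for Lrig1 with voom (-0.16), and without those libraries for Ascl2 (0.31), Smoc2 (0.58), Tnfrsf19 (0.063) and Prom1 (-0.68), and for Ascl2 without spheroid WT replicate 1 (0.013). The cause was not tested. Depth limits OLFM4 and HOPX in Caco-2, which had 1 count each and were not tested.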
